A study of Drosophila melanogaster with 2 samples.

Results

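This account covers the genes for the Mediator, TFIID and RNA polymerase subunits and the general factors of RNA polymerase II in a ChIP-seq study of the fly protein tramtrack. The genes were chosen by name: protein-coding genes of the Ensembl annotation whose symbol starts with MED or Taf and a digit, with TfII, or with Polr1, Polr2 or Polr3. The rule found 79 of 13968 protein-coding genes on the chromosome arms, namely 25 MED, 15 Taf, 9 TfII, 7 Polr1, 13 Polr2 and 10 Polr3 genes. Binding had been mapped in whole Drosophila melanogaster embryos aged 0 to 24 h that carry tramtrack fused to eGFP, a green fluorescent protein. Chromatin was sonicated to 200 to 800 bp and the fusion was precipitated through its tag, per the labels, although their antibody field names ttk. The data are 2 biological replicates of 1 group, and control libraries were not analysed here, so each value below describes this pair of libraries and no test between conditions was possible. Whole embryos mix all tissues, so binding in a few cells and weak binding in many cannot be told apart. A summit is the position of a peak's highest point, and signal is the authors' own value for a peak, in units that the sources used here do not give.

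Mediator is a large complex that carries contacts from DNA-bound activators to RNA polymerase II, and it is built of a head, a middle and a tail module. TFIID, made of the TATA-binding protein and the Taf subunits, recognises core promoters, and TFIIA, TFIIB, TFIIE and TFIIF help place and start the polymerase. RNA polymerase I makes ribosomal RNA, RNA polymerase II makes messenger RNA, and RNA polymerase III makes tRNA and 5S RNA. Most of these genes are used in every cell, while tramtrack, a BTB zinc-finger protein, is best known as a repressor of neural and segmentation genes.

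The strongest member promoters are shown by the bases under their summits. None of the 8 stretches holds a tramtrack word searched, and 7 of the 8 hold a run of 8 or more A or T. Over all promoter summits, 73.6% had such a run within 50 bp, and 8.23% had AGGAC, a core bound by tramtrack, within 100 bp. The run length was chosen after the sequences were seen. The 8 are the members of highest signal whose summit lies outside every annotated exon and off the arm whose bases are not shown here. Each line gives up to 50 bases on each side of the summit, cut at the nearest exon, 5′ to 3′ on the gene's strand. Capitals mark runs of 8 or more A or T. The bases are those of the RefSeq sequence of the dm6 assembly.
Polr2H, chr3L:21728807-21728858, plus strand: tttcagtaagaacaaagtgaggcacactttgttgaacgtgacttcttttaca
MED27, chr3R:5654974-5655074, plus strand: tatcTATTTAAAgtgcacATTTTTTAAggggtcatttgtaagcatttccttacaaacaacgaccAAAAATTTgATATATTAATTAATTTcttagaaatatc
Polr2B, chr3R:14125673-14125773, plus strand: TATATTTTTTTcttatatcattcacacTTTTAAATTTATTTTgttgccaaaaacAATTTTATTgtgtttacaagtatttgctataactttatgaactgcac
Polr2J, chr2L:17410495-17410595, minus strand: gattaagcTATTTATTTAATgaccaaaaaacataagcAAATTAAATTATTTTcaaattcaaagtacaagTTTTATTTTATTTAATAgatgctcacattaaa
MED7, chr3R:10761060-10761147, minus strand: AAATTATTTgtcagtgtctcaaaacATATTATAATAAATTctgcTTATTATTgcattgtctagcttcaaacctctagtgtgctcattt
MED30, chr3L:654234-654334, minus strand: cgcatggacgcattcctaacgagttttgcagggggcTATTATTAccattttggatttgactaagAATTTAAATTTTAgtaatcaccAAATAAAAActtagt
TfIIA-L, chr3R:27253210-27253310, plus strand: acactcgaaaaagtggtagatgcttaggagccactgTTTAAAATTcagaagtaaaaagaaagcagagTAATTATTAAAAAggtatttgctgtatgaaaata
MED17, chr3R:18188922-18189022, plus strand: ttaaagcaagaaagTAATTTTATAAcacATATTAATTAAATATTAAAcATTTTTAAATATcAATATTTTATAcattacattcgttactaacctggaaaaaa

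In these stretches A and T made up between 63.5% (Polr2H) and 83.2% (MED17) of the bases. Polr2H alone of the 8 held no marked run in its printed stretch, which the nearest exon cut to 52 bases, and its uncut window holds a run of 10.

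Summits of the authors' conservative list lay at the promoters of 18 of the 79 genes, in every class but the 7 RNA polymerase I genes. A promoter here means 500 bp on either side of any annotated transcription start site (TSS). The 18 genes were 22.8% of the members, beside 14.2% of all protein-coding genes. They included MED4, MED6, MED7, MED16, MED17, MED27 and MED30, Taf2, Taf4 and Taf5, TfIIA-L and TfIIB, Polr2B, Polr2F, Polr2H and Polr2J, and Polr3E. Each had 1 promoter summit, and no summit served a pair of members. With the authors' larger list 20 members (25.3%) were bound at the promoter, beside 16.1% of all genes, the additions being MED25 and Polr2C. In the thresholded list of replicate 1 the count was 18 (22.8%, beside 11.9% of all genes), and in that of replicate 2 it was 19 (24.1%, beside 12.6%). Of the 18 members, 16 were also bound in both of those lists, and Taf2 only in that of replicate 1. No gene class or list below was tested against the rest of the genome: each count stands beside the percentage for all genes as a description.

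**Figure D1:**
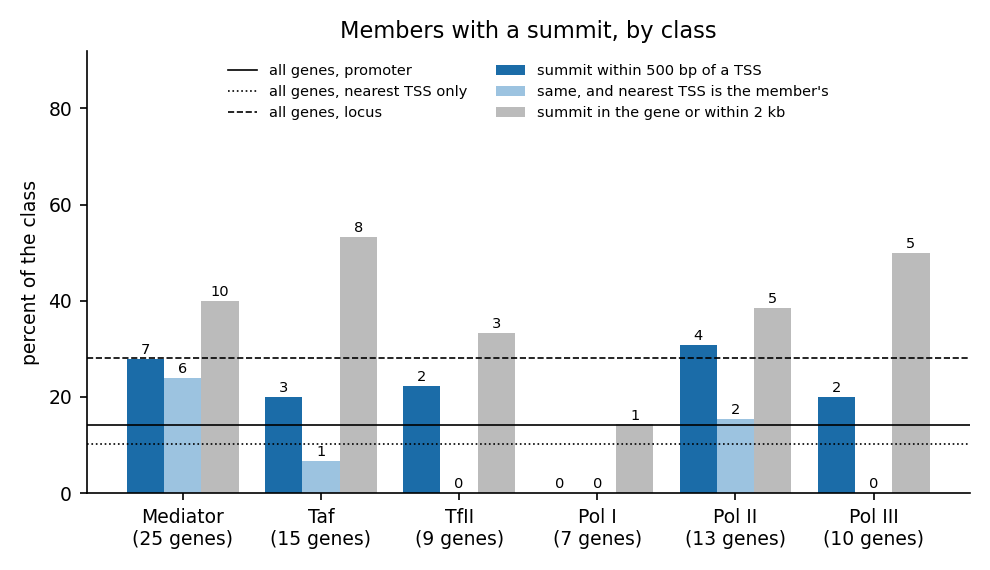
Percent of each gene class with a summit of the conservative list within 500 bp of a TSS (dark bars), with such a summit for which the member's TSS is the nearest of all protein-coding genes (light bars), and with one in the gene body or its 2-kb flanks (grey bars); numbers over the bars are genes and the 3 lines give the same percentages over all 13968 protein-coding genes. The Mediator class holds 6 of the 9 members counted under the nearest-TSS rule, and the Pol I class has no promoter summit.

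Many of these summits belonged as much to a neighbouring gene. At 9 of the 18 promoters the nearest protein-coding TSS was the member's own, and at the other 9 it was that of another gene. Over all genes bound at the promoter, 72.2% had the nearest TSS. When each summit was counted only for the gene with the nearest TSS, 9 members (11.4%) were bound, beside 10.3% of all genes. The members kept by this count were MED4, MED6, MED7, MED16, MED17, MED27, Polr2B, Polr2F and Taf4. The general factor and RNA polymerase III classes then had 0 genes.

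Members were more often arranged head to head with another gene than the average gene. A protein-coding TSS on the other strand lay within 1 kb upstream of 55 of the 79 members (69.6%), beside 36.2% of all genes. Among genes with such a neighbour, 29.1% of the members (16 of 55) and 24.9% of all genes (1259 of 5052) had a promoter summit. Among genes without one, it was 8.33% of the members (2 of 24) and 8.13% of all genes (725 of 8916). Within each of these 2 arrangements the share of members lay closer to that of all genes than it did before the genes were divided. MED4 and Polr2F were the members bound at the promoter with no such neighbour. A gene was sorted by any of its TSSs, so the neighbour and the summit need not be at the same one. At Taf4 the summit lay at an internal TSS, 1049 bp from its neighbour Zn72D. What part the neighbour has in the signal was not tested.

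All 18 promoter summits lay upstream of the member's nearest TSS (18 of 18, exact 95% Clopper-Pearson interval 81.5 to 100%, for counting error only), at a median of -132 bp. Measured to the nearest protein-coding TSS of any gene, 17 of the 18 (94.4%) lay upstream, at a median of -85.0 bp, the exception being the summit at Taf2. By that measure 81.8% of all 1567 promoter summits lay upstream, at a median of -112 bp. Where the member's TSS was the nearest, the summit lay 1 to 140 bp upstream of it, and where another gene was nearer it lay 124 to 332 bp upstream. The members nearest to the 500-bp limit were Polr3E at -332 bp and TfIIB at -329 bp, and outside it came MED20, whose nearest summit was 1007 bp inside its gene. No member had its nearest summit between these distances, so widening the promoter to 1000 bp added none.

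**Figure D2:**
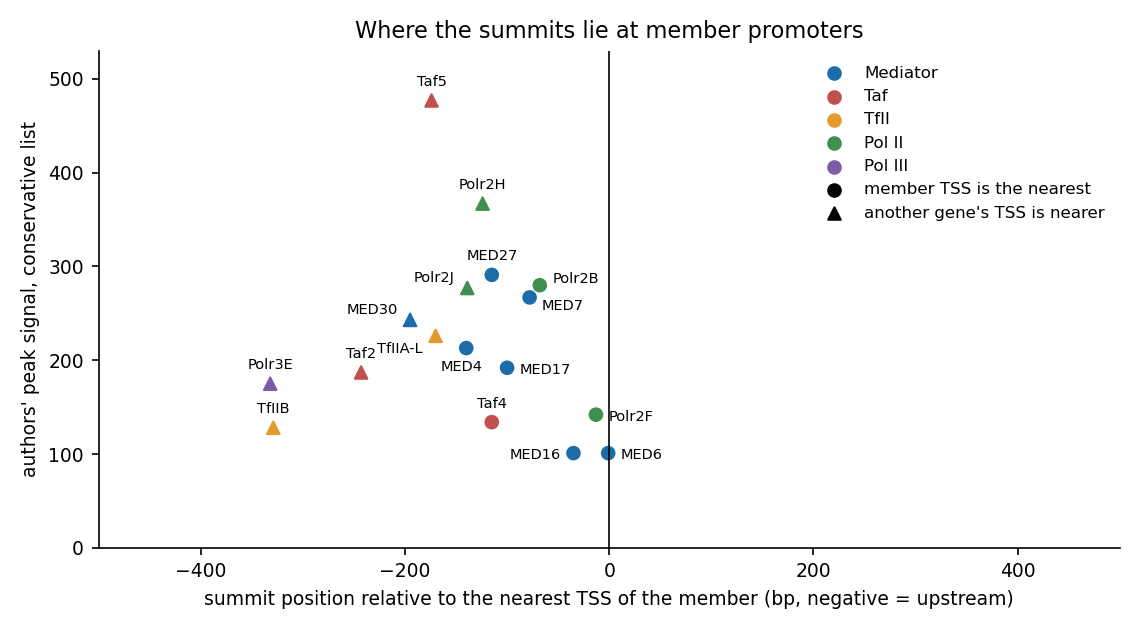
Position of 17 of the 18 promoter summits relative to the member's nearest TSS (horizontal axis, bp, negative is upstream) against the authors' signal in the conservative list (vertical axis); colours are gene classes, circles mark summits for which the member's TSS is the nearest and triangles those with another gene's TSS nearer. All points lie left of the TSS, with Taf5 highest at 477 and the farthest at -332 bp.

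Of the 25 Mediator genes 7 were bound at the promoter, beside 14.2% of all genes, and they came from the head, the middle and the tail. Of the 7 head genes MED6 and MED17 were bound, of the 9 middle genes MED4 and MED7, and of the 7 genes listed under the tail MED16 and MED27, while MED30 belongs to none of these lists. MED27 had the strongest of these summits (3R:5654938-5655107, signal 291, 115 bp upstream of the TSS), with 129 in replicate 1 and 163 in replicate 2. Its divergent neighbour elm starts 278 bp away, and the summit lay 163 bp upstream of elm.

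MED7, a middle subunit, had a summit 78 bp upstream of its TSS (3R:10761025-10761152, signal 267), between MED7 and Cap-H2, a condensin II subunit gene. Its signal was 144 in replicate 1 and 125 in replicate 2. At MED30, a subunit known from animals, the summit lay 195 bp upstream (3L:654201-654323, signal 243; 141 and 107 in replicates 1 and 2). It was nearer to Rev1, a translesion DNA polymerase gene, at -79 bp.

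At MED4, another middle subunit, the signal was 213 at -140 bp, with 86.0 and 125 in replicates 1 and 2. At MED17, a scaffold subunit of the head, the signal was 192 at -100 bp, with 78.7 and 96.6. MED6 and MED16 were the weakest of the class, at 101 each. The MED6 summit sat 1 bp upstream of a TSS, inside an annotated 5′ UTR (48.7 in replicate 1 and 53.6 in replicate 2). It also lay 18 bp upstream of the divergent gene Naa80. The MED16 summit lay at -35 bp (56.3 and 52.5). These 2 are absent from the stronger part of the conservative list, and MED6 is lost when only its 5′-most TSS is used.

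The Mediator genes with no promoter summit included MED14, the backbone of the complex, and MED26, known in mammals for its contacts with elongation factors. MED11, MED14 and MED26 had no peak at the promoter even in the ranked lists of either replicate, which hold weak peaks too. MED31 had a ranked peak of 63.6 in replicate 1, past the threshold of that replicate, and none in replicate 2. MED25 had 30.5 and 38.9 and passed in replicate 2 and in the larger list. The remaining Mediator genes without a promoter summit were MED1, MED8, MED9, MED10, MED15, MED18, MED19, MED20, MED21, MED22, MED23, MED24 and MED28, with ranked peaks of 8.43 (MED1) to 34.8 (MED8) where one was found. The kinase module is named by other symbols and is given with the related genes.

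Of the TFIID genes, Taf5 had the highest signal of any member promoter. Taf5, a scaffold subunit of TFIID, had a summit 174 bp upstream of its TSS (2R:10879730-10879949, signal 477), which ranked 185 among the 3815 conservative summits. The signal was 252 in replicate 1 and 232 in replicate 2. The summit lay 127 bp upstream of the divergent gene Pex6, which encodes a peroxisome biogenesis factor, and so was nearer to Pex6. Taf4, another scaffold subunit, has 3 TSSs, and its summit lay 115 bp upstream of an internal one, in an intron (3L:16113503-16113846, signal 134; 78.5 and 60.5 in replicates 1 and 2).

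Among the members with a promoter summit, the replicates differed most on Taf2, which contacts core promoter DNA. Its summit (3L:9888754-9889097, signal 187) reached 140 in replicate 1 but 42.6 in replicate 2, a log2 ratio of 1.72, and it passed the threshold in replicate 1 only. It lay 243 bp upstream of Taf2 and 164 bp inside the divergent gene CalpB, a calpain protease gene, in a 5′ UTR.

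The other Taf genes, Taf1 among them, the largest subunit of TFIID, had no promoter summit. The divergent pair Taf10 and Taf10b, histone-fold genes whose TSSs are 45 bp apart, each had a strongest ranked peak of 19.0 in replicate 1 and 12.1 in replicate 2. Taf11 had 29.3 and 30.8. Taf3 on chromosome 4 had no ranked promoter peak in either replicate. Taf12L, a paralog of Taf12, had 12.6 in replicate 1 and none in replicate 2. The rest of the class, Taf6, Taf7, Taf8, Taf9, Taf12 and Taf13, reached at most 21.1, at Taf8 in replicate 1, and Taf12 had no ranked promoter peak.

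Among the general factors TfIIA-L and TfIIB were bound, both at the promoter of a nearer neighbour. TfIIA-L encodes the large subunit of TFIIA, and its summit lay in an intron 170 bp upstream of an internal TSS (3R:27253200-27253335, signal 226; 114 in replicate 1 and 107 in replicate 2). The same summit lay 78 bp upstream of pll, which encodes the kinase pelle of the Toll pathway. TfIIB, a single protein that helps choose the start site, had a summit at -329 bp (2L:10430837-10431180, signal 128; 67.7 and 73.3). It lay 91 bp upstream of Bug22, a gene for a protein of cilia.

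The 7 other TfII genes had no promoter summit. TfIIA-S, for the small subunit of TFIIA, had the strongest ranked peak of them, at 25 in replicate 1 and 56.5 in replicate 2. Its paralog TfIIA-S-2 had none in replicate 1 and 10.4 in replicate 2. The TFIIE genes TfIIEalpha and TfIIEbeta had between 6.32 and 16.2 where a peak was found, and TfIIS, for a factor that restarts stalled polymerase, had 21.4 in replicate 2 only. Of the TFIIF genes, TfIIFalpha had 19.9 in replicate 1 only and TfIIFbeta 19.6 in replicate 2 only.

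RNA polymerase II had 4 of 13 genes bound, beside 14.2% of all genes. Polr2H, a subunit shared with the other polymerases, was the second strongest member promoter (3L:21728713-21728904, signal 367; 148 in replicate 1 and 216 in replicate 2). Its summit lay 124 bp upstream of the Polr2H TSS and 2 bp upstream of the divergent gene CG11247. Polr2F, another shared subunit, had a summit 13 bp upstream of its TSS (signal 142; 67.0 and 86.4).

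Polr2B, the second-largest subunit, had a signal of 280 at -68 bp (3R:14125551-14125894), with 136 in replicate 1 and 146 in replicate 2, and its neighbour 140up starts 243 bp away. Polr2J, a core subunit, had a signal of 277 at -139 bp (2L:17410455-17410592; 147 and 131), and CG15141 was nearer at -96 bp. Polr2A, the largest subunit with the catalytic centre, had only weak ranked peaks of 23.1 and 34.4. Polr2C, which pairs with Polr2J, had 22.1 and 45.5 and passed in replicate 2 and in the larger list. Polr2D, Polr2E, Polr2G, Polr2I, Polr2L and Polr2M had ranked peaks of 6.86 (Polr2M) to 37.0 (Polr2I), and Polr2K had none.

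RNA polymerase III had 2 of 10 genes bound and RNA polymerase I had 0 of 7, beside 14.2% of all genes. With so few genes in a class these counts are imprecise. Polr3E had a signal of 175 at -332 bp (3L:21031321-21031664; 108 in replicate 1 and 67.1 in replicate 2), with CG10584 nearer at -133 bp. Neither RNA polymerase III gene was bound when only the nearest gene was counted. The RNA polymerase I genes had ranked promoter peaks of at most 28.7 in replicate 1 and 29.4 in replicate 2, both at Polr1D, and Polr1E had none, while Polr1A, Polr1B, Polr1C, Polr1F and Polr1H had 10.5 (Polr1F) to 22.5 (Polr1H). Of the RNA polymerase III genes without a promoter summit, Polr3A, Polr3C, Polr3D and Polr3I had ranked peaks of 4.38 (Polr3A) to 27.9 (Polr3D). Polr3B, Polr3F, Polr3G and Polr3K had none.

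**Figure D3:**
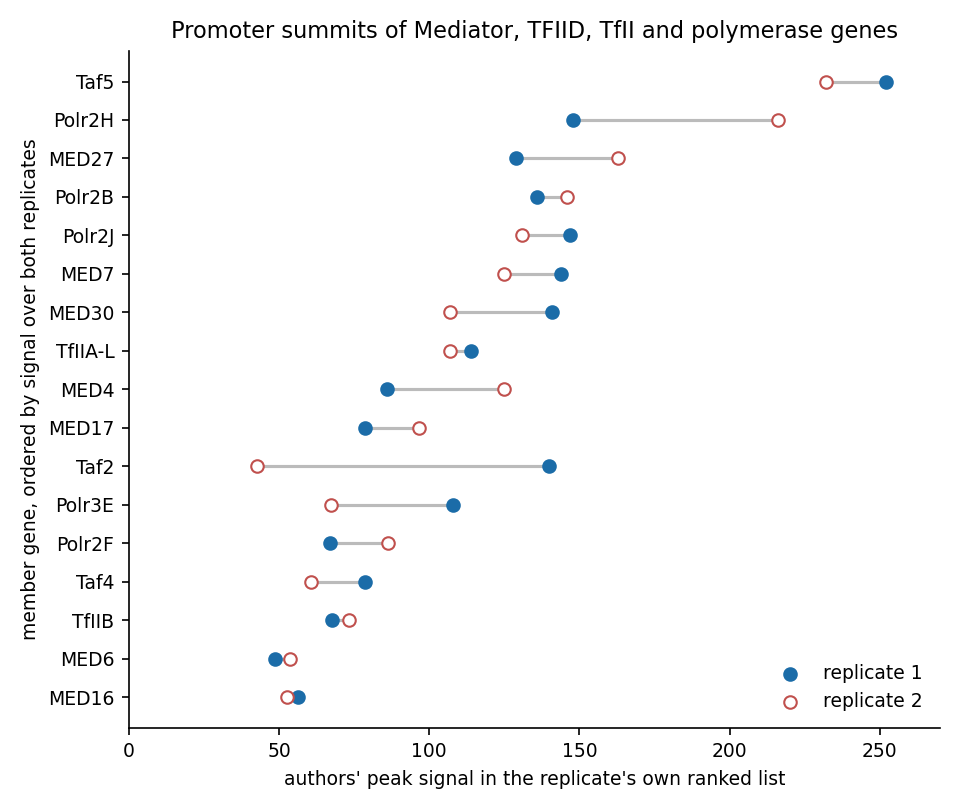
Authors' signal of 17 of the 18 promoter summits in the ranked list of replicate 1 (filled points) and of replicate 2 (open points), with genes ordered by the signal in the conservative list. Taf5 is highest in both, at 252 and 232, and Taf2 has the widest gap, from 140 to 42.6.

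The replicates gave like signals at most of these promoters. The conservative list was chosen by a score that compares peak ranks between lists, so some likeness follows from that choice. Replicate 1 was higher at 9 of the 18 and replicate 2 at the other 9. The log2 ratio of replicate 1 to replicate 2 had a median of -0.01 ± 0.54 (SD across 18 summits), and without Taf2 the SD was 0.36, with values from -0.54 to 0.68. Over the 33 summits in or near members the median was 0.12 ± 0.47 (SD), beside 0.15 ± 0.49 over the 3579 conservative summits matched in both replicates. The signals of the member promoters had a median of 203 (quartiles 136 and 274), and those of all 1567 promoter summits a median of 137 (quartiles 92.5 and 236). Of the 18 members, 13 were above that median. The 1567 are single summits, while the members are counted by gene. By gene, the strongest peak of the ranked list over both replicates had a median of 203 for the 18 members. For all 1984 genes bound at the promoter it was 151. Where the member's own TSS was the nearest the median was 192 (9 summits), and where another gene was nearer it was 226 (9 summits).

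At the 61 members with no promoter summit, the strongest ranked peak within 500 bp of a TSS had a median of 19.0 in replicate 1 (39 genes with a peak, highest 63.6) and 18.4 in replicate 2 (36 genes, highest 56.5). Over the 11984 genes with no promoter summit the medians were 20.3 and 16.9. A ranked peak was found at 63.9% of the 61 members in replicate 1 and 59.0% in replicate 2, beside 62.1% and 63.9% of the 11984 genes. Across the 18 bound members the medians were 111 and 102. Bound and unbound members therefore overlapped in the ranked signal, since MED31 in replicate 1 lay above MED6 (48.7), and TfIIA-S in replicate 2 lay above Taf2 (42.6). Of the 79 members, 11 had no ranked promoter peak in either replicate. In replicate 1, 72.2% of the members and 67.4% of all genes had such a peak. In replicate 2 it was 68.4% and 68.8%.

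**Figure D4:**
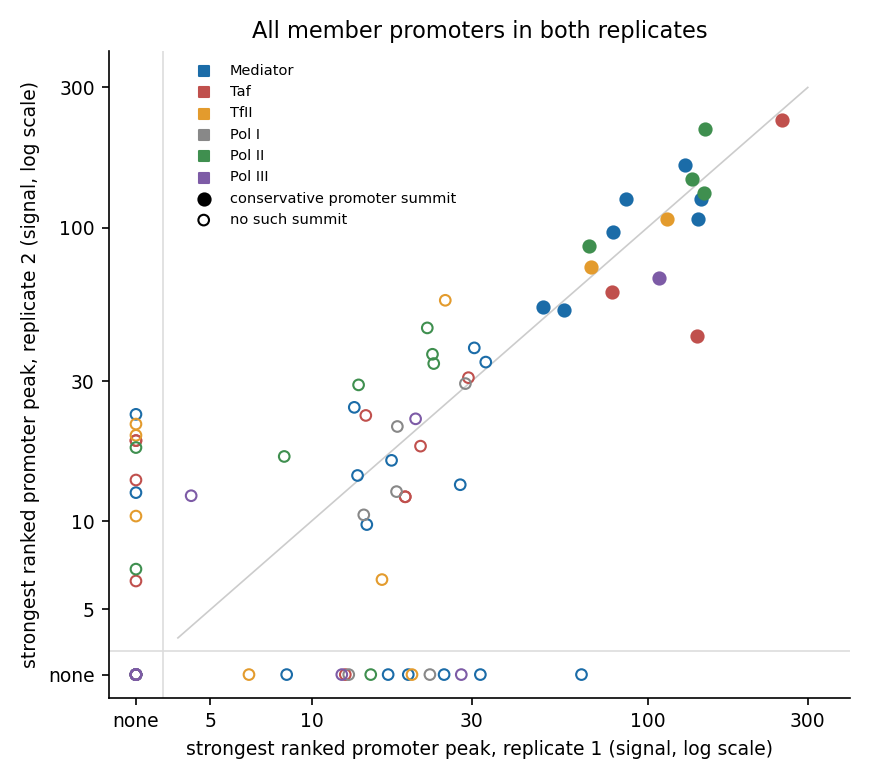
Strongest ranked peak within 500 bp of a TSS for the members (1 left out), in replicate 1 (horizontal) and replicate 2 (vertical), both on log scales of the authors' signal; members with no such peak are placed at none, filled points have a promoter summit in the conservative list, and the grey diagonal marks equal signals. The filled points start at 48.7 in replicate 1 and 42.6 in replicate 2, and Taf2 is the filled point farthest below the diagonal.

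With the gene and 2 kb on each side counted, 32 of the 79 members had a summit (40.5%), beside 28.2% of all genes. The 14 members added to the promoter-bound genes were MED8, MED19, MED20, Polr1E, Polr2C, Polr3D, Polr3F, Polr3G, Taf9, Taf10, Taf10b, Taf12, Taf13 and TfIIS. Every one of their 15 summits was nearer to the TSS of another gene, and 12 of them lay within 500 bp of one. Of all conservative summits, 41.1% lay within 500 bp of a protein-coding TSS. These members were picked for having no summit within 500 bp of their own TSS, which favours another gene being nearer. The strongest was the summit near Polr2C (2L:13835321-13835624, signal 1391, ranked 13 in the list; 688 in replicate 1 and 714 in replicate 2), 2122 bp past the Polr2C TSS and 105 bp upstream of CenG1A. The next were near Taf9 (493; 272 and 225 in replicates 1 and 2), 102 bp upstream of CG8142, and near Polr3G (445; 205 and 242), 119 bp upstream of Gorab.

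The summit near Taf13 (2L:20091323-20091537, signal 378) had 203 in replicate 1 and 171 in replicate 2, and it lay 11 bp inside Pyroxd1 and 2403 bp from the Taf13 TSS. Taf12 had one of 308 (175 and 142) upstream of CG18476. Taf10 and Taf10b shared a summit of 146 (2L:2766017-2766103; 74.6 and 57.1), 193 bp upstream of aph-1. Taf10b had a further one of 169 (2L:2765690-2765843; 94.0 and 73.1), 175 bp upstream of Snx21, so neither summit was at the promoter between Taf10 and Taf10b.

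Polr1E, the only RNA polymerase I gene with a summit, also had a pair of them, both nearest to the same neighbouring gene. The stronger (3R:18298988-18299100, signal 204) had 73.7 in replicate 1 and 116 in replicate 2, and lay 2698 bp from the Polr1E TSS. The weaker (3R:18298167-18298510, signal 93.0) had 53.3 and 33.9 and lay 3389 bp from it. Both replicates had the higher signal at the first, while the log2 ratio of replicate 1 to replicate 2 was -0.65 at the first and 0.65 at the other.

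The TfIIS summit (2L:15056753-15057096, signal 165; 101 in replicate 1 and 56.1 in replicate 2) lay in an intron 937 bp into ck, a myosin gene, and 3832 bp from the TfIIS TSS. The Polr3F summit (3R:22368873-22369216, signal 116; 67.2 and 47.2) lay 1672 bp upstream of Polr3F and 237 bp upstream of PyK. The summits near Polr3D (85.2), MED8 (73.0) and MED19 (68.5) were weaker. At MED20 a summit of 129 lay in the 3′ UTR, 217 bp upstream of poe, and it was the only one of the 15 inside the member gene.

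Without flanks only 4 members were bound, namely MED6, MED20, Taf4 and TfIIA-L (5.06%), beside 10.1% of all genes. The members are short, with a median gene length of 1330 bp beside 2164 bp for all genes. The 47 members with none in the gene body or its 2-kb flanks had their nearest conservative summit between 2251 bp (MED15) and 2204128 bp (MED21) from a TSS. No member is on Y, and none of the 8 members on X or the 2 on chromosome 4 had a promoter summit, beside 12.9% and 1.25% of all genes there.

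The sequence at the member promoter summits was rich in A and T. Within 50 bp of the summit A and T made up 69.4% ± 11.8 of the bases (SD across 18 summits), beside 65.0% ± 11.4 at all 1567 promoter summits. At 500 bp the share was 47.6% ± 3.76 for the members and 54.3% ± 7.74 for all promoter summits. The highest share was at Taf2 (86.1%) and the lowest at MED6 (41.6%) and Polr2F (46.5%). A run of 8 or more A or T, as marked in the printed sequences, stood within 50 bp of 15 of the 18 summits (83.3%) and 73.6% of all promoter summits. Windows of the same length centred 100 bp upstream of the 5′-most TSS held one in 82.0% of members with no promoter summit and in 65.4% of all genes. A and T made up 67.1% and 62.3% of the bases in these windows, so member promoters without a summit were also rich in A and T.

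**Figure D5:**
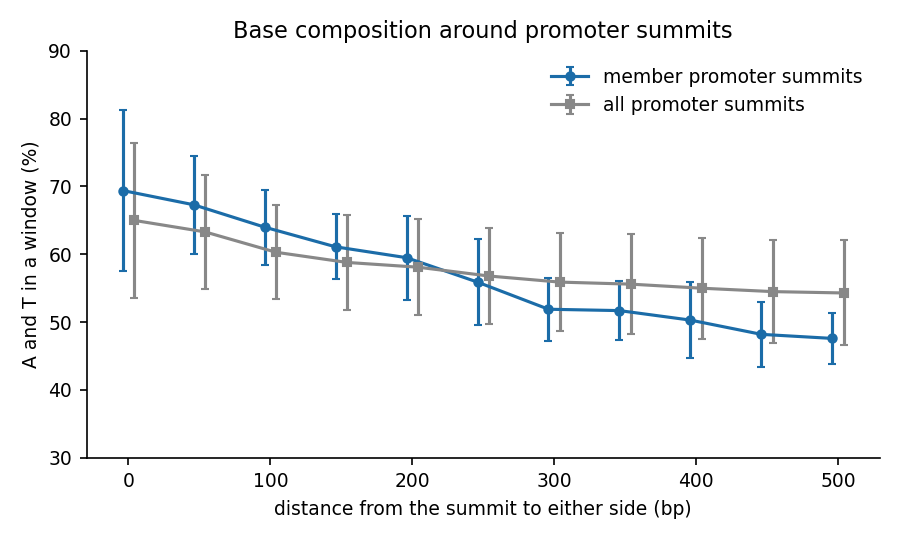
Mean percent of A and T in windows of 101 bp at increasing distance from the summit (both sides averaged), for the 18 member promoter summits (circles) and all 1567 promoter summits (squares, which include the members), with bars of 1 SD across summits. The members fall from 69.4% at the summit to 47.6% at 500 bp, and all promoter summits from 65.0% to 54.3%.

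Within 100 bp of the summit and on either strand, AGGAC, the core bound by the shorter tramtrack isoform, was at 0 of the 18 member summits, beside 8.23% of all promoter summits. The longer GGTCCT, which contains that core on its other strand, was at 0 (beside 1.53%), and so was the site of the longer isoform, AGGGCGG or AGGGTGG (beside 47 of 1567). TSS windows, of the same length and centred 100 bp upstream of the 5′-most TSS, held AGGAC in 0 of the 18 bound members, in 7 of the 61 members with no promoter summit (11.5%) and in 11.1% of all genes. TATCGATA, the DNA replication-related element of many housekeeping promoters, was at 1 of the 18 summits, MED17 (5.56%, beside 5.42% of all promoter summits). In TSS windows it was at 2 of the 18 bound members (11.1%), at 10 of the 61 members with no promoter summit (16.4%) and at 7.37% of all genes.

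GGTCACAC, the core of the promoter element called motif 1, was at 0 of the 18 summits (beside 3.45%). In TSS windows it was at 1 of the 18 bound members (5.56%), at 7 of the 61 members with no promoter summit (11.5%) and at 3.74% of all genes. TATAAA was at 7 of the 18 (38.9%, beside 35.6%), and GAGAG at 2, MED4 and MED30 (11.1%, beside 22.0%). With 18 summits these shares are imprecise: the exact 95% interval for 1 of 18, as for TATCGATA, ran from 0.141 to 27.3% for counting error only.

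Genes of the same pathway under other names were also bound in part. Of 74 related genes in 8 lists, 22 had a promoter summit (29.7%), beside 14.2% of all genes. In or near the gene (same 2-kb limit) 32 had one (43.2%), beside 28.2% of all genes. The nearest TSS was their own for 9 of the 22, and so for 9 of the 74. By the nearest-TSS count 10.3% of all genes were bound. TFIIH, the general factor that opens DNA, had 4 of 10 genes bound. The strongest was Ssl1 (signal 1333, with 690 in replicate 1 and 654 in replicate 2), where the chromatin protein gene Chro was nearer. It was followed by mrn (159) and Xpd (121, with LSm1 nearer). The histone acetyltransferase complex SAGA had 4 of 14, led by Gcn5, its catalytic subunit (296, with ver nearer), Ada3 (109) and Ada2b (108). Pausing and elongation factors had 6 of 20. They were led by TH1, a subunit of the pausing factor NELF (447), Nelf-E (297, with RpL14 nearer) and the kinase gene Cdk12 (214). The Integrator complex had 5 of 14, led by IntS11 (377), IntS6 (260) and IntS9 (185), with Wdr24, Rtel1 and CG43295 nearer to these summits. Of the Pol I and Pol III factors, Brf (377, with sds22 nearer) and Bdp1 (310), both subunits of TFIIIB, were bound among 4. In the list of the Mediator kinase module with ix, 1 of 5 was bound, skd (159), where Pdss2 was nearer. None of the 3 TBP family genes and none of the 4 matched testis paralogs of Taf genes had a promoter summit.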

How the data were processed

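Peak lists of 2 ChIP-seq libraries, biological replicates of 1 group, were used as deposited, in dm6 coordinates per the labels. No aligner or peak caller is named in the sources available for this work. Deposited with each peak are the authors' signal, an IDR score (irreproducible discovery rate, which compares peak ranks between lists) and a summit; every conservative peak has a score of at least 830. Peak files hold no read counts, so depth is unknown and no interval needing it was computed. Replicate 1 had 3203 thresholded and 91874 ranked peaks, replicate 2 had 3075 and 116688, and the conservative list had 3827, of which 3815 on the arms were used.

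Genes and TSSs came from Ensembl release 115 and bases from RefSeq; 99.8% of annotated start codons read ATG there. The replicate signal of a summit is that of the nearest summit within 150 bp in that replicate's ranked list. Motif windows spanned 201 bp. The members and lists were chosen with earlier results of these data known, and the run of A or T was chosen after the sequences were seen. The rule named every member with a summit, with full values for the 3 strongest summits of each class and for members with several, unbound members by class, and up to 3 genes of a related list with the strongest promoter summit. Of the related symbols, 3 were matched through synonyms, 1 was not matched and 2 were members under older symbols. No test was run: with 1 group, counts stand beside those of all genes. Counting was tested on simulated data with planted summits. Alternatives were other lists, each replicate alone, other widths, flanks and matching distances, whole peaks and nearest or 5′-most TSSs. Tools were numpy 2.4.6, scipy 1.17.1, pandas 2.3.3 and, for plots, matplotlib 3.10.9, under Python 3.11.15. The single values of 1 member with a promoter summit are not reported here, and it is left out of the plots of single genes, while counts and means over members hold it.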

Additional observations from a re-analysis of the deposited data

How the results depend on the processing

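The count of 18 members bound at the promoter stayed between 15 and 20 under 8 of 9 alternatives. Under these the share of all genes moved too, from 8.75 to 16.9%. The count was 9 when a summit counted only for the gene of the nearest TSS, beside 10.3% of all genes. With each replicate's list left out in turn it was 18 and 19, and 17 of the 18 genes were shared with the main call both times. The count of 32 bound loci stayed between 25 and 43 under 6 of 7 alternatives, while the share of all genes moved from 18.0 to 40.2%. It fell to 4 with no flank, beside 10.1% of all genes. Without replicate 1 the count was 30 and without replicate 2 it was 28. All member summits stayed upstream with the larger list and both other widths, and 94.7% and 94.4% did in the lists of replicates 2 and 1. The share with TATCGATA was 5.56%, 0% within 50 bp, 11.1% within 200 bp and 10% with the larger list. The median log2 ratio of the replicates was between 0.10 and 0.12. No paired analysis was possible because there is 1 group and no comparison between groups. Read depth is unknown, so a member without a summit is not shown to be unbound.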
